A study of Mus musculus with 12 samples.

Results

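The autophagy machinery was followed here through 38 genes of the mouse liver, from the kinase complex that starts an autophagosome to the receptors that hand it cargo. The genes were chosen by name and role, with no measured value in the rule, although earlier results of these data were known, and their Ensembl identifiers were matched to GENCODE M21 symbols. They made up 38 of the 53465 genes in the count table, and all 38 had enough counts to be tested in every comparison. Each sample was taken as the liver of a single C57BL/6N mouse, measured by RNA-seq. The mice were of 3 months (young), 12 months (middle-aged) or 18 months (aged), with 4 livers at each age. According to the study's methods its mice were male and fed freely, and the labels name no engineered allele and no treatment. The extraction notes in the labels mention young and old livers but not middle-aged ones, so how the middle-aged livers were prepared is not known here.

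In autophagy a membrane grows around cytoplasm or organelles, closes into an autophagosome and fuses with a lysosome, where the contents are broken down. The ULK kinase complex starts the process when nutrients are scarce, a lipid kinase complex marks the membrane, and conjugation enzymes attach small ubiquitin-like ATG8 proteins to it, which in turn bind cargo receptors. In the liver the pathway is known for supplying amino acids and lipids during fasting and for clearing mitochondria and protein aggregates. Much of its control acts on proteins and on membrane flux, and mRNA levels do not measure flux.

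Counts assigned to genes ranged from 8124312 to 10527159 per liver. Genes with at least 1 count numbered 16361 to 17563 in 10 livers, with young replicate 3 (22284) and middle-aged replicate 1 (19982) above them. Young replicate 3 and middle-aged replicate 3 also carried skeletal muscle transcripts (summed markers 466 and 614 normalised counts, against at most 25.8 in the others) and the highest adipocyte marker sums (61.6 and 528, against at most 15.3). The hepatocyte markers summed to 845683 or more in every liver, and none of the 10 was called between ages. Of all genes, 3.58% were called in aged against young livers, 6.41% in middle-aged against young and 1.14% in aged against middle-aged. The count of 0 among 10 markers therefore says little. In aged against young livers 1 of 8 Kupffer cell and macrophage markers and 1 of 4 tested cholangiocyte markers were called, both higher. In whole tissue, fewer cells of a type and less RNA per cell cannot be told apart.

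All 38 genes were expressed at every age. Their normalised counts (counts divided by DESeq2's size factor for the liver) averaged from 47.1 for Atg10 to 4482 for Sqstm1 over the 12 livers. The median was 326, against 136 for the 12430 genes tested across the 3 ages, and 36 genes averaged over 100 counts. The lowest raw count of any of the genes in any liver was 36. Per kb of exon, the scale used to set genes side by side, the median was 45.4 normalised counts against 28.3 for the tested genes. The length was that of all annotated exons of a gene merged, so levels between genes depend on the annotation.

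The levels per kb differed widely within the pathway. Gabarapl1 (1535 normalised counts per kb) and Gabarap (1351), which encode ATG8 proteins of the GABARAP branch, stood with the cargo receptor gene Sqstm1 (1336) far above the rest. Map1lc3a followed at 289.5, then Atg3 at 289, the enzyme that passes ATG8 proteins to lipid, and Nbr1 at 284, another cargo receptor. At the other end were Tfeb (11.7), a transcription factor for lysosome genes, Atg16l2 (14.5), a paralogue of the scaffold gene Atg16l1, and Pik3r4 (16.2), the regulatory subunit of the lipid kinase.

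**Figure D1:**
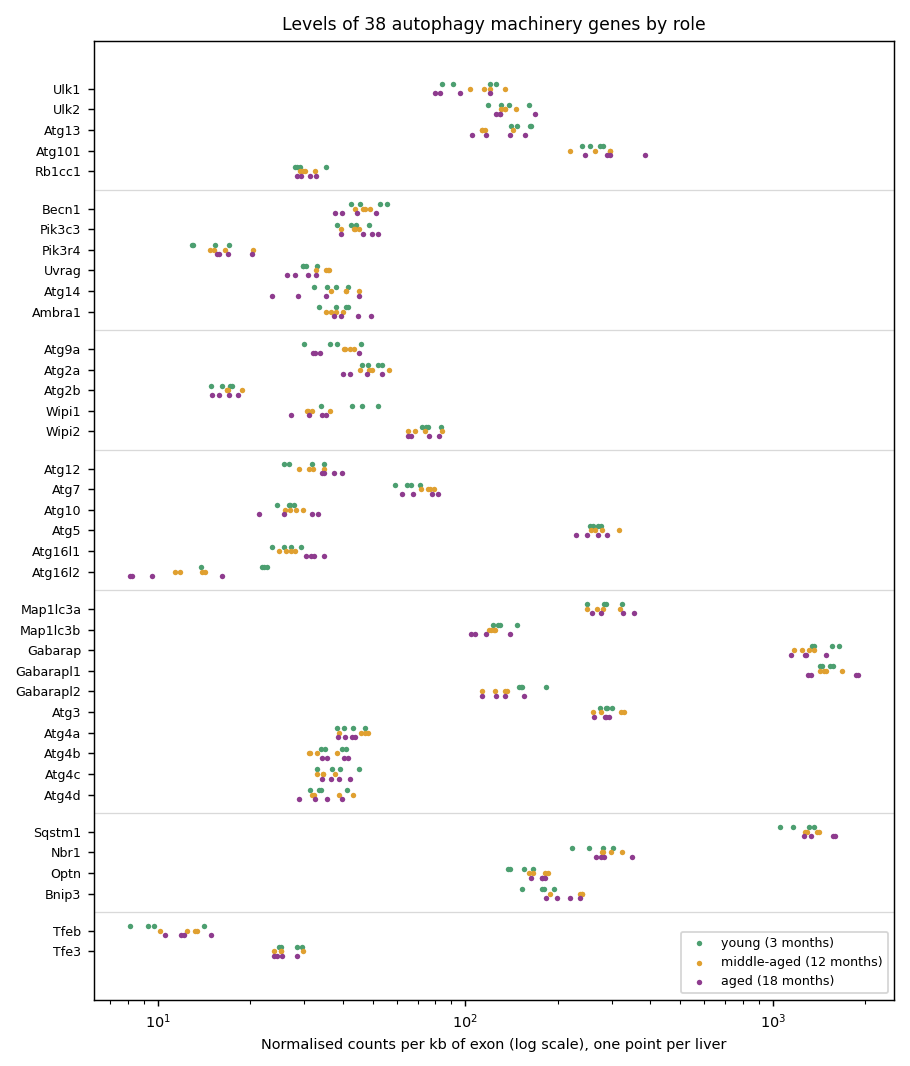
Normalised counts per kb of exon (log scale) of the 38 autophagy genes, ordered by role from the ULK complex at the top to the transcription factors at the bottom, with a point for each of the 4 young, 4 middle-aged and 4 aged livers. Gabarapl1, Gabarap and Sqstm1 lie above all other genes at every age, and the colours of the ages overlap for nearly every gene.

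The spread among livers of an age was smaller in these genes than over all genes, a description with no test. The median coefficient of variation among the 4 livers was 9.73% (young), 8.14% (middle-aged) and 12.4% (aged). Over the 12430 tested genes it was 15.6, 12.2 and 16.9%. These genes were also more abundant than the average gene, and the part of abundance in the smaller spread was not tested.

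**Figure D2:**
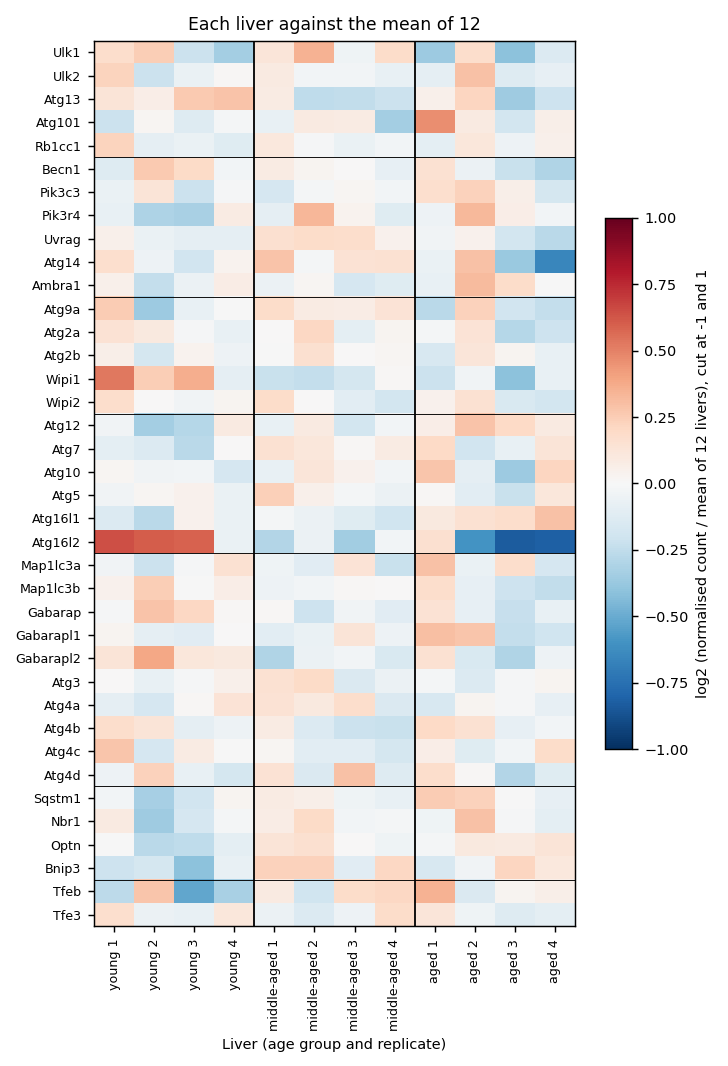
Log2 ratio of the normalised count in each liver (columns, by age group and replicate) to the mean of the 12 livers, for the 38 autophagy genes (rows, by role). Colours are pale for most genes, and the strongest row is Atg16l2, red in young replicates 1 to 3 and blue in aged replicates 2 to 4.

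Whether mRNA of the autophagy machinery differed by 18 months was addressed by setting aged against young livers. Of the 38 genes, 1 passed (DESeq2 Wald test, Benjamini-Hochberg adjusted p under 0.05), and it was lower. Among all 13527 genes tested, 3.58% were called and 1.71% were called lower, so 1 of 38 (2.63%) is close to the background. At an unadjusted p under 0.05 there were 8 of the 38 genes (21.1%), against 15.9% of all genes. The groups of livers did not overlap for 1 gene, Atg16l1, against 7.53% of all genes. The log2 fold changes ran from -0.93 to 0.29 with a median of -0.01, and 19 genes lay above 0 and 19 below.

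Middle-aged against young livers gave no call among the 38 genes, against 6.41% of 11333 genes tested. At an unadjusted p under 0.05 there were 8 (21.1%, background 21.7%). edgeR's quasi-likelihood test, run on genes passing a filter on low counts, also called 0 (background 2.31%), with 6 at an unadjusted p under 0.05 (background 21%). limma voom on the same genes called 0 (background 5.72%), with 9 at an unadjusted p under 0.05 (background 25.5%). Groups did not overlap for 2 genes, Gabarapl2 and Atg7, against 16% of all genes. The log2 fold changes ran from -0.65 to 0.36, with 23 of 38 above 0. Both comparisons used the same 4 young livers.

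Aged against middle-aged livers also gave no call, against 1.14% of 10236 genes tested. There were 2 genes at an unadjusted p under 0.05 (5.26%, background 9.94%). Filtered edgeR called 0 (background 0.107%), with 2 at an unadjusted p under 0.05 (background 9.59%), and filtered limma voom called 0 (background 0.452%), with 5 (background 12.9%). The 2 genes whose groups did not overlap were Atg16l1 and Uvrag (background 6.55%). Across the 3 ages together, the DESeq2 likelihood ratio test called 1 of 38 genes, against 6.96% of 12430.

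A missed threshold does not show equal levels, so the intervals are given too. In aged against young livers the 95% interval of the fold change lay within 1.5-fold either way for 35 of the 38 genes, against 47.3% of all genes tested. For middle-aged against young the count was 33 (background 52.7%), and for aged against middle-aged 35 (background 67%). Within 2-fold either way lay 37, 37 and 38 genes in the same 3 comparisons, against 70.9, 83.5 and 92.2% of all genes. The median standard error (SE) of a log2 fold change was 0.12 for the 38 genes in each comparison, against 0.20, 0.17 and 0.16 for all genes.

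**Figure D3:**
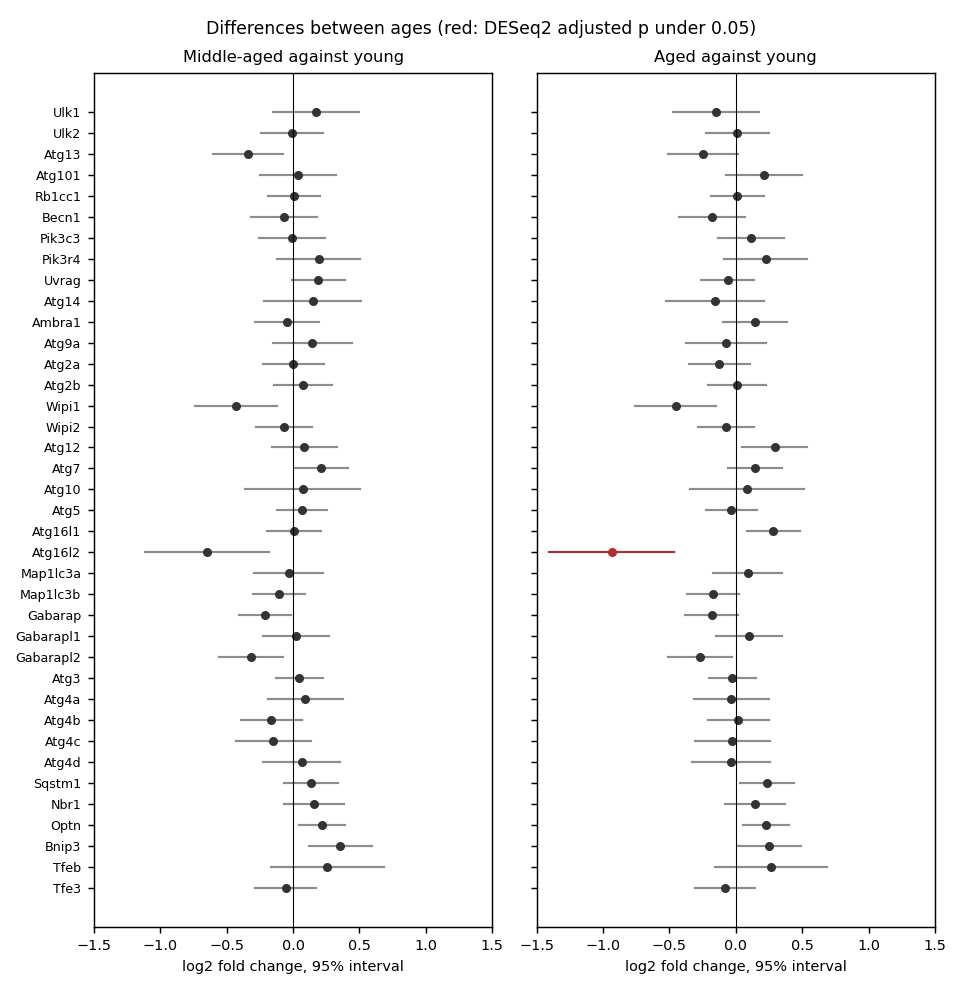
Log2 fold change (point) and 95% interval (line) of each of the 38 autophagy genes for middle-aged against young livers (left) and aged against young livers (right), ordered by role. Atg16l2 in aged against young livers (-0.93) is the only value in red, the colour for a DESeq2 adjusted p under 0.05, and most other intervals include 0.

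The genes are described below by role. Values in every liver are given for Atg16l2, the only gene called, and for Ulk1, Map1lc3b, Gabarapl1, Sqstm1 and Tfeb whatever their values. Other genes given liver by liver were picked after their values had been seen.

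None of the 5 genes of the ULK complex was called in any comparison. Ulk1, the kinase through which mTORC1 and AMPK control the start of autophagy, had 780.2, 818, 592 and 545 normalised counts in the young livers, 748, 876, 670.2 and 781 in the middle-aged and 537, 780.2, 517 and 626 in the aged. The 3 ages overlapped, and the spread within young and within aged livers exceeded the difference of their means. The log2 fold change was -0.32 in aged against middle-aged livers (SE 0.16, DESeq2 adjusted p = 0.504) and -0.15 in aged against young livers (adjusted p = 0.735). Its paralogue Ulk2 averaged 820.1 ± 107, 816 ± 39.6 and 828 ± 120.1 at the 3 ages (SD, n = 4).

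Atg13, the subunit that links ULK kinases to the scaffold, was nearest to the threshold in this group. It had 644, 616, 707 and 718 normalised counts in young livers, 624, 494, 497 and 507 in middle-aged livers and 609, 684, 461 and 510.4 in aged livers. Middle-aged replicate 1 lay among the young values and the other 3 middle-aged livers lay below all of them. Middle-aged against young livers gave a log2 fold change of -0.34 (DESeq2, SE 0.13, adjusted p = 0.0992). Rb1cc1, the scaffold itself, averaged 443 ± 51.1, 446 ± 22.9 and 447 ± 29.4 (SD, n = 4), and Atg101, a partner of Atg13, 419 ± 30.5, 429 ± 57.1 and 484 ± 93.1.

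The lipid kinase complexes, which make the phosphoinositide that marks the growing membrane, gave no call among their 6 genes. Uvrag, a subunit of the complex that also acts in endosome traffic, had 297, 274, 269 and 268 normalised counts in young livers, 319.7, 326, 324 and 296 in middle-aged livers and 279, 295, 252 and 238 in aged livers. All 4 middle-aged livers lay above all 4 aged livers, though the nearest pair (296 and 295) all but touched. Aged against middle-aged livers gave a log2 fold change of -0.25 (DESeq2, SE 0.10, adjusted p = 0.273). Becn1, which holds the complex together, averaged 347 ± 43.5, 329.7 ± 15.3 and 306 ± 43.2 (SD, n = 4), and the kinase gene Pik3c3 194 ± 19, 192 ± 10.6 and 209.8 ± 24.9. Atg14, which directs the complex to autophagosome formation, ranged from 102 to 196 normalised counts among the aged livers, wider than among the young (139.8 to 179).

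Of the 5 genes for ATG9 vesicles, lipid transfer and phosphoinositide binding, none was called. Wipi1, which binds the phosphoinositide made by the lipid kinase, had 229, 188, 204 and 149 normalised counts in young livers, 136, 135, 140.4 and 160.4 in middle-aged livers and 136, 155, 119.7 and 151 in aged livers. Young replicates 1 to 3 lay above all 8 older livers, and young replicate 4 lay among them. The log2 fold change was -0.43 in middle-aged against young livers (SE 0.16, DESeq2 adjusted p = 0.0705) and -0.45 in aged against young livers (SE 0.16, adjusted p = 0.0803). Of 27 alternatives 1 called it in each comparison, the fit without young replicate 4. The related Wipi2, the more abundant per kb, averaged 806 ± 52, 769.5 ± 87.2 and 766 ± 85.4 normalised counts (SD, n = 4).

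The conjugation genes held the only call. Atg16l2 (ENSMUSG00000047767, chromosome 7, 101263034 to 101302251, minus strand, GRCm38) is a paralogue of Atg16l1, and is known to bind the ATG12-ATG5 conjugate. It had 192, 187, 185 and 117 normalised counts in young livers, 100.3, 118, 96.2 and 120.3 in middle-aged livers and 137, 80.9, 69 and 69.7 in aged livers. Young replicates 1 to 3 lay above all older livers, while young replicate 4 lay below aged replicate 1 and among the middle-aged livers, so the groups overlapped. The log2 fold change of aged against young livers was -0.93 (95% interval -1.40 to -0.46, SE 0.24, DESeq2 adjusted p = 0.00686). For middle-aged against young livers it was -0.65 (SE 0.24, adjusted p = 0.0754), and for aged against middle-aged livers -0.29 (SE 0.24, adjusted p = 0.821). The likelihood ratio test across the 3 ages gave an adjusted p of 0.00878 (DESeq2), and 17 of 26 alternatives kept that call.

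The call rested on a margin that several choices removed. limma voom on genes passing a filter on low counts gave an adjusted p of 0.0169 for aged against young livers and called only Atg16l2 of the 38 (background 2.85%). edgeR's quasi-likelihood test on the same genes gave 0.0518 and called none (background 1.4%). It was also lost without aged replicate 3 (adjusted p = 0.0578, DESeq2) and without the libraries that carried muscle transcripts (adjusted p = 0.0501, DESeq2). The direction was the same in all 27 alternatives, of which 22 called the gene.

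Markers of red blood cells and their precursors also differed between young and aged livers. The summed erythroid markers (4 globin genes and Alas2) ranged from 22967 to 86366 normalised counts in young livers, 12815 to 49844 in middle-aged livers and 9671 to 21230 in aged livers. Young and aged livers did not overlap in this sum. Of the 5 markers, 2 were called lower in aged livers (background 1.71%). They were Alas2 at -0.60 on the log2 scale (DESeq2 adjusted p = 0.0255) and Hbb-bs at -1.67 (adjusted p = 0.0498). Young replicate 4, lowest of the young livers for Atg16l2, was lowest for the erythroid sum as well, and aged replicate 1, highest of the aged livers for Atg16l2, was highest for it. Young replicates 1 to 3 were close for Atg16l2 (185 to 192) while their erythroid sums ran from 34931 to 86366. In the middle-aged livers the orders differed: replicate 3 had the lowest Atg16l2 count (96.2) and the highest erythroid sum. Aged replicate 1 was also the highest aged liver for the summed Kupffer cell and macrophage markers (4655 normalised counts, others 2896 to 3583). In the other ages the orders differed for this sum too. Young replicate 1, highest for Atg16l2 (192), had the lowest young sum (2756), below young replicate 4 (3519). Middle-aged replicate 3, lowest of its age for Atg16l2, had the highest sum of its age (3116). The summed lymphocyte markers overlapped between ages, at 156 to 305 normalised counts (young), 127 to 473 (middle-aged) and 123 to 231 (aged). The part of these cell types in the Atg16l2 difference was not tested.

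Atg16l1, the scaffold that places the conjugation machinery on the membrane, lay on the other side of 0. It had 248, 227, 281 and 262 normalised counts in young livers, 270.1, 262, 252 and 239 in middle-aged livers and 292, 303, 309 and 334 in aged livers. All 4 aged livers lay above all 8 younger ones. It stood at a log2 fold change of 0.28 against young livers (95% interval 0.08 to 0.48, SE 0.10, DESeq2 adjusted p = 0.0975) and 0.28 against middle-aged livers (SE 0.10, adjusted p = 0.188), so the gene passed in neither. Per kb of exon, Atg16l1 stood at 1.38 ± 0.41 times Atg16l2 when young, 2.09 ± 0.29 times when middle-aged and 3.33 ± 1.05 times when aged (SD, n = 4), a ratio given as a description.

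The other conjugation genes were not called. Atg12, the ubiquitin-like protein joined to ATG5, averaged 229 ± 32.6, 244 ± 19.4 and 282 ± 20.3 normalised counts at the 3 ages (SD, n = 4), with a log2 fold change of 0.29 in aged against young livers (SE 0.12, DESeq2 adjusted p = 0.186). Atg7, the enzyme that activates both ATG12 and the ATG8 proteins, averaged 456 ± 35.2, 529 ± 21.5 and 504 ± 62.2. Its 4 middle-aged livers lay above all young livers, with a fitted difference of 0.21 on the log2 scale (DESeq2, SE 0.10, adjusted p = 0.215). Atg5 averaged 625 ± 21.9, 655 ± 61.7 and 609 ± 61, and Atg10, which joins ATG12 to ATG5, 45.5 ± 2.46, 47.6 ± 2.86 and 48.2 ± 9.46.

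The ATG8 proteins coat the growing membrane, and the LC3 and GABARAP branches bind partly different partners. Map1lc3b, whose lipid-bound product LC3-II is the usual marker of autophagosomes, had 961, 1105, 928 and 978 normalised counts in young livers, 898, 914, 939.5 and 934 in middle-aged livers and 1055, 879, 807 and 786 in aged livers. Aged replicate 1 lay among the young livers and the other 3 aged livers lay below them. In aged against young livers it stood at a log2 fold change of -0.17 (DESeq2, SE 0.10, adjusted p = 0.422). Gabarapl1 had 3153, 2904, 2860.3 and 3096 normalised counts in young livers, 2879, 2955, 3385 and 2992 in middle-aged livers and 3815, 3746, 2618 and 2686 in aged livers. The aged livers split, with replicates 1 and 2 above and replicates 3 and 4 below all 8 younger livers, and their log2 fold change against young was 0.10 (SE 0.13, adjusted p = 0.789). Synthetic spike-in RNAs split the libraries into replicates 1 and 2 (set A) and replicates 3 and 4 (set B) of every age, and the part of that split in the aged values was not tested.

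Gabarapl2 had 356, 425, 352 and 348 normalised counts in young livers, 263, 312, 319 and 292 in middle-aged livers and 360.3, 292, 264 and 314 in aged livers. All 4 middle-aged livers lay below the young ones, with a fitted difference of -0.32 on the log2 scale (DESeq2, SE 0.12, adjusted p = 0.0958), and the aged livers overlapped them. Gabarap averaged 2724 ± 275, 2350.5 ± 156 and 2399.8 ± 265 (SD, n = 4). Per kb, Gabarapl1 made up 42.1% of the summed ATG8 level in young livers, 45.7% in middle-aged livers and 46.0% in aged livers, and Gabarap 41.6, 38.4 and 37.9%. Map1lc3a held 8.06, 8.39 and 8.88%, and Gabarapl2 and Map1lc3b each stayed under 5%. These shares rest on annotated exon length, 7517 bases for Map1lc3b and 1181 for Map1lc3a. Before division by length, the 2 genes averaged 932 and 342 normalised counts over all livers.

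The 4 protease genes Atg4a to Atg4d, whose products trim ATG8 proteins before conjugation and release them from lipid, were below the median of the 38 genes per kb, at 42.9, 36.2, 37.1 and 35.1 normalised counts, and none was called. Atg4b averaged 309.8 ± 28, 276 ± 28 and 314 ± 30 normalised counts (SD, n = 4), and Atg4a, Atg4c and Atg4d averaged between 110.2 and 265. Atg3 averaged 906 ± 33.1, 936 ± 105 and 889 ± 43.9.

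All 4 cargo receptor genes had a log2 fold change above 0 in both comparisons with young livers, and none was called. Of all 38 genes, 19 lay above 0 in aged and 23 in middle-aged against young livers. Further receptor genes are in the list of other autophagy genes counted below. The median log2 fold change of that list was 0.04 in aged and -0.01 in middle-aged against young livers. Sqstm1, which encodes p62 and carries ubiquitin-tagged cargo, had 4389, 3556, 3917 and 4562 normalised counts in young livers, 4755, 4669, 4351 and 4264 in middle-aged livers and 5349, 5254, 4475 and 4243 in aged livers. Aged replicates 1 and 2 lay above all other livers, and replicates 3 and 4 lay among the young ones. Aged against young livers gave a log2 fold change of 0.23 (95% interval 0.03 to 0.44, DESeq2, SE 0.10, adjusted p = 0.208). Over the 27 alternatives it ran from 0.04 to 0.42, and none called Sqstm1. Replicates 1 and 2 form spike-in set A, and the part of that split in the Sqstm1 values was not tested. Optn, a receptor for mitochondria and bacteria, had a log2 fold change of 0.22 in middle-aged (SE 0.09, adjusted p = 0.119) and 0.23 in aged livers (SE 0.09, adjusted p = 0.139). Nbr1 averaged 1819 ± 243, 2031 ± 146 and 2014 ± 257 normalised counts (SD, n = 4).

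Bnip3, a receptor in the outer mitochondrial membrane, fell just outside the threshold. It had 401, 409, 347 and 439 normalised counts in young livers, 543, 542, 428 and 534 in middle-aged livers and 413, 452, 537 and 498 in aged livers. Middle-aged replicates 1, 2 and 4 lay above all young livers, and replicate 3, a library with muscle and adipocyte transcripts, lay below the highest young liver. The log2 fold change of middle-aged against young livers was 0.36 (95% interval 0.12 to 0.60, SE 0.12, DESeq2 adjusted p = 0.0502), and 7 of 27 alternatives called it. In aged against young livers it was 0.25 (adjusted p = 0.276).

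**Figure D4:**
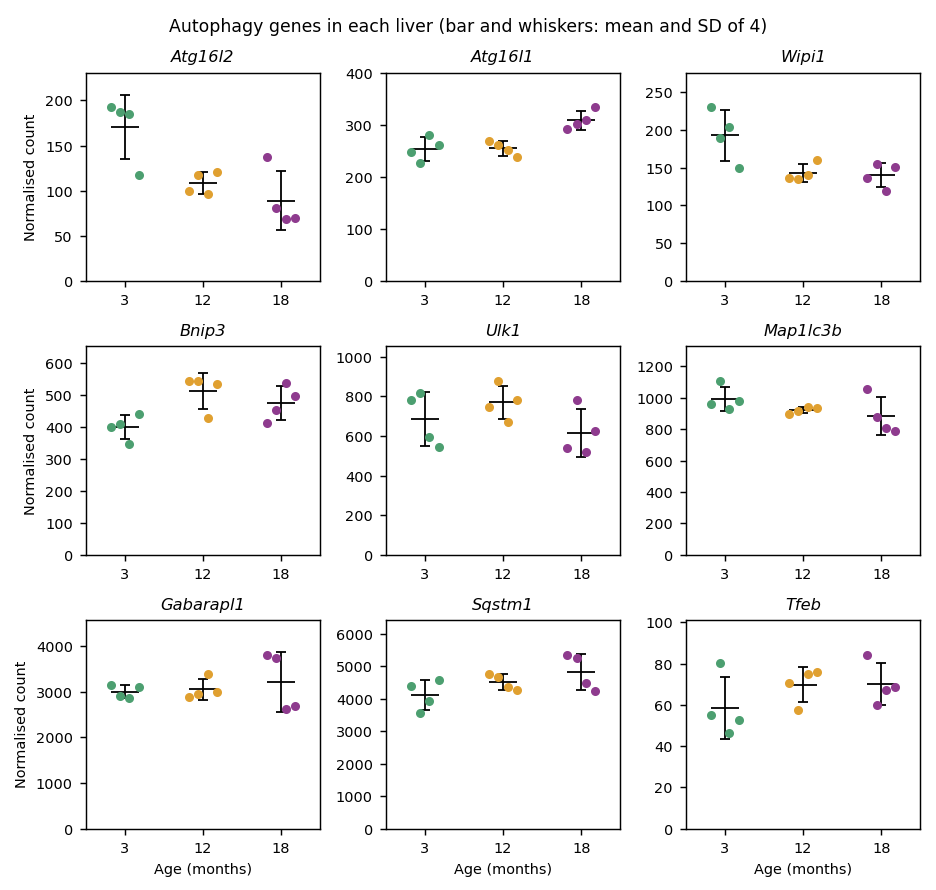
Normalised counts (axes from 0) of 9 autophagy genes in each of the 4 livers at 3, 12 and 18 months, with points in replicate order, a bar at the mean and whiskers of 1 SD. Atg16l2 falls from 170.3 to 89.3 in the means, with young replicate 4 among the older livers. The ages overlap for every gene shown except Atg16l1, whose aged livers lie above all younger ones.

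The transcription factors Tfeb and Tfe3 enter the nucleus when mTORC1 is inactive and raise lysosome and autophagy genes, so their mRNA says little about their activity. Tfeb had 55.2, 80.2, 46.2 and 52.7 normalised counts in young livers, 70.5, 57.5, 75.1 and 76.2 in middle-aged livers and 84.3, 59.7, 67.3 and 68.8 in aged livers. The ages overlapped, and young replicate 2 was the second highest of the 12. Against young livers, aged ones had a log2 fold change of 0.26 (95% interval -0.16 to 0.69, DESeq2, SE 0.22, adjusted p = 0.616). Tfe3 averaged 249.6 ± 21.4, 241 ± 23.4 and 237 ± 18.3 (SD, n = 4).

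Promoters were read because TFEB, TFE3 and the clock factors bind sites built on the letters CACGTG, which read the same on both strands. RefSeq (GRCm38.p6) gave a promoter, from 250 bases before to 50 after a start, for 32 of the 38 genes. Of these 5 (15.6%) held the motif, against 8.09% of 27025 genes. Windows of 26 bases with the motif in capitals, on the strand of the gene, are shown to place the motif in the genes that hold it, none of which was called between ages.
Atg14 (chr14:47568420-47568445, minus strand): aacaaaatccCACGTGactggccctg
Atg3 (chr16:45158725-45158750, plus strand): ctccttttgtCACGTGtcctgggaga
Atg3 (chr16:45158748-45158773, plus strand): agagtcgagtCACGTGaggccttagg
Atg5 (chr10:44268315-44268340, plus strand): gagcgcttgcCACGTGgtcttggtga
Atg7 (chr6:114670954-114670979, plus strand): tattggtggtCACGTGtgcagtaagt
Bnip3 (chr7:138909599-138909624, minus strand): gcacgcgccgCACGTGccacacgctc
The motif began 1 base before the start in Atg14, 94 and 71 before it in Atg3, 14 in Atg5, 132 in Atg7 and 108 in Bnip3. The median GC content of the promoters was 60.8%, against 52.7% over all. Whether GC content accounts for the motif's share was not tested, and a match of letters is not a binding site.

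Genes around the 38 were counted in lists. Of 29 further autophagy genes (membrane fusion, other receptors and regulators), 27 were tested in each comparison with young livers. None was called in aged against young livers and 2 were called higher in middle-aged livers, the receptor gene Calcoco1 by 0.42 on the log2 scale (DESeq2, SE 0.13, adjusted p = 0.0331) and the adaptor gene Tollip (0.27, SE 0.08, adjusted p = 0.0194). With 3.58 and 6.41% of all genes called in these comparisons, both counts are near the background. In aged against middle-aged livers 0 of 26 passed, where 1.14% of all genes did, so that count says little about the list.

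Of 30 lysosome genes, 4 passed in aged against young livers, against the background of 3.58% of genes. Lipa, the lysosomal acid lipase that breaks down cholesteryl esters and triglycerides, had 1448, 1346, 1399 and 1687 normalised counts in young livers, 1909, 2181, 1889.6 and 2004 in middle-aged livers and 1734, 2101, 2696 and 2451 in aged livers. Every older liver lay above every young one. It rose by 0.61 on the log2 scale in aged livers (SE 0.13, DESeq2 adjusted p = 0.000464) and by 0.44 in middle-aged livers (SE 0.13, adjusted p = 0.0194). Ctsb, a cathepsin protease, rose by 0.25 in aged livers (SE 0.06, adjusted p = 0.00608), and Gaa, which degrades glycogen in lysosomes, by 0.30 (SE 0.09, adjusted p = 0.0252).

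The lysosome list also held a gene that fell. Atp6v0e, a subunit of the proton pump that acidifies lysosomes, averaged 443 ± 39.2, 348 ± 29.7 and 341 ± 23.3 normalised counts (SD, n = 4), and its young livers lay above all others. Its log2 fold change was -0.38 in aged (SE 0.10, DESeq2 adjusted p = 0.0156) and -0.35 in middle-aged livers (SE 0.10, adjusted p = 0.0204). Npc1, which exports cholesterol from lysosomes, was called in middle-aged livers alone among the pairwise tests, at 544 ± 106, 855 ± 117 and 629 ± 60.6 normalised counts (log2 fold change against young 0.65, SE 0.15, adjusted p = 0.000783). In middle-aged against young livers 3 of 30 passed (2 higher and 1 lower), near the background of 6.41%. The other 26 lysosome genes did not pass in aged against young livers. In aged against middle-aged livers 0 of 30 passed, where 1.14% of all genes did, so that count says little about the list.

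A list of 32 genes for nutrient and energy sensing covers steps upstream of the ULK complex. Of these, 3 were called in middle-aged against young livers, all higher, a count near the background of 6.41%. Fnip2, a partner of folliculin at the lysosome, had 173, 102, 148 and 88.8 normalised counts in young livers, 246, 303, 249 and 339.8 in middle-aged livers and 126, 195, 130.2 and 169 in aged livers. All middle-aged livers lay above all others. It was higher than in young livers by 1.15 on the log2 scale (SE 0.22, DESeq2 adjusted p = 5.16e-05), and aged livers stood at -0.88 against middle-aged ones (SE 0.22, adjusted p = 0.0121). Its paralogue Fnip1 rose by 0.68 in middle-aged livers (SE 0.15, adjusted p = 0.00103). Deptor, an mTOR inhibitor, rose by 0.24 in middle-aged (SE 0.08, adjusted p = 0.0283) and 0.27 in aged livers (SE 0.08, adjusted p = 0.0175).

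Foxo3, a transcription factor that insulin signalling holds out of the nucleus and that can drive autophagy genes, averaged 368 ± 37.2, 443 ± 23.7 and 301 ± 48.3 normalised counts (SD, n = 4). Its aged livers all lay below its middle-aged livers, with a fitted difference of -0.56 on the log2 scale (DESeq2, SE 0.12, adjusted p = 0.0028). It and Fnip2 were the 2 of 30 tested sensing genes called between those ages (background 1.14%). Deptor was the only 1 of 32 called between aged and young livers, near the background of 3.58%.

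**Figure D5:**
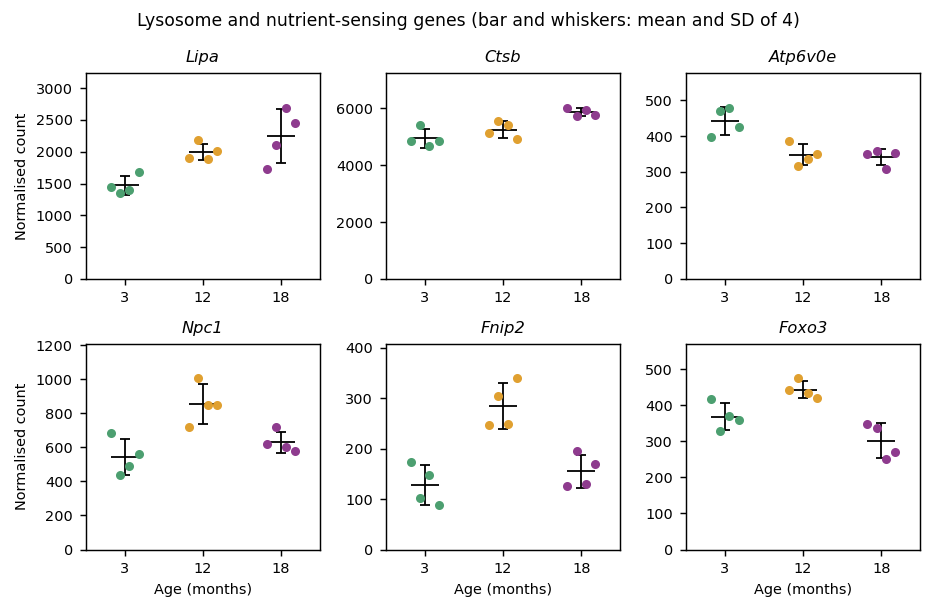
Normalised counts (axes from 0) of 4 lysosome genes and the sensing genes Fnip2 and Foxo3 in each of the 4 livers at 3, 12 and 18 months, with a bar at the mean and whiskers of 1 SD. Lipa is higher and Atp6v0e lower in all 8 older livers than in the young ones, and Npc1 and Fnip2 are highest in middle-aged livers.

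Feeding state and time of day bear on autophagy, and genes that report them differed between ages. Of 17 clock genes, 7 of 16 tested were called in middle-aged against young livers (6 higher and 1 lower, background 6.41%) and 9 of 15 in aged against middle-aged livers (3 higher and 6 lower, background 1.14%). In aged against young livers 1 of 17 was called, near the background of 3.58%. Of 12 fasting genes, 5 were called in aged against young livers (4 higher and 1 lower, background 3.58%), 2 of 11 tested in middle-aged against young livers (1 higher and 1 lower, background 6.41%) and 0 of 11 in aged against middle-aged livers (background 1.14%). No time of day or fasting state at collection was given in the labels. The part of either in the values of the autophagy and lysosome genes was not tested.

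Some of the genes share sequence with others, and their counts are less certain. Of all 50-base stretches in the annotated exons, 51.2% in Atg4a, 30.2% in Atg9a, 16.6% in Bnip3, 12.2% in Gabarapl2 and 5.77% in Map1lc3b also occurred in another annotated gene, pseudogenes included. In the other 33 genes the share was under 5%. Atg9a overlapped a same-strand gene model, Gm29253, over 1832 exon bases, and that model had 0 counts in every liver. Whether counting used strand was not given in the sources used here, and Becn1, Uvrag and Atg4d overlap a gene on the opposite strand over 3104, 1589 and 1405 exon bases.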

How the data were processed

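The authors deposited raw counts for each gene in 12 livers, not normalised, with 92 spike-in transcripts that were left out of the tests. The submitters' processing notes name STAR 2.5.2b, SAMtools 1.9, featureCounts, R 3.6.3, edgeR 3.28.1, DESeq2 1.26.0 and the builds mm10 and GRCm38, without settings. The extraction notes describe 4 young and 4 old livers, and the series design gives 3 replicates per age where the table holds 4. Age group and replicate were taken from sample titles, and each sample was taken as a separate animal. No 2 livers of the same age agreed within sampling noise (chi-square per gene at least 11.2).

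DESeq2 1.42.0 in R 4.3.3 was fitted to 28449 genes (those with any count), with age as the only term, default independent filtering, Wald tests for pairs of ages and a likelihood ratio test for the 3 ages, adjusted by Benjamini-Hochberg over all genes tested. Positions and exon lengths came from GENCODE M21, which held 53274 of the 53465 identifiers. Percentages of all genes are over those with an adjusted p.

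The 38 genes and the other lists were chosen with earlier results of these data known. All 38 could be named; values in every liver were to be given for genes called in any comparison and for Ulk1, Map1lc3b, Gabarapl1, Sqstm1 and Tfeb. For other lists at most 5 called genes per comparison could be named.

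Alternatives were limma 3.58.1 (voom, weighted by sample quality), the quasi-likelihood test of edgeR 4.0.16, TMM factors, total counts, a low-count filter (10 counts or more in 4 livers or more), no independent filtering, fits of the compared groups alone, a replicate block, the spike-in set as covariate, each spike-in set alone, leaving out each liver, and leaving out the 2 livers with most genes detected. Without a filter edgeR estimated an infinite prior degrees of freedom, so that genes shared 1 variance trend. The edgeR and limma voom values in the text are therefore on 12174 filtered genes (edgeR prior degrees of freedom 5.13), a choice made after seeing the data, as was leaving out the 2 livers with muscle transcripts. The scripts were tested on simulated data.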

Additional observations from a re-analysis of the deposited data

Results flagged for a closer look

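In 8 of 114 groups of 4 livers (38 genes at 3 ages), 1 liver stood apart from the other 3 by Dixon's test, its gap to the nearest liver taking up more of the group's range than the 95% critical value for 4 samples. Chance gives about 1 in 20 groups, or 5.7 of 114. In young livers these were Atg16l2 in replicate 4 (117 normalised counts, others 185 to 192), Rb1cc1 in replicate 1 (519, others 410.0 to 425) and Gabarapl2 in replicate 2 (425, others 348 to 356). In middle-aged livers they were Bnip3 in replicate 3 (428, others 534 to 543), Atg13 in replicate 1 (624, others 494 to 507) and Atg2b in replicate 2 (252, others 225 to 229). In aged livers they were Ulk2 (1008, others 753 to 778) and Atg9a (260.1, others 184 to 194), both in replicate 2. Without the liver concerned, Atg16l2, Bnip3 and Atg13 each passed in middle-aged against young livers, where none passed with all 12 livers. In these 3 genes the liver left out was picked from the same values and lay toward the other age. Leaving it out widens the difference, so the passes are no evidence of one. The other flagged genes did not pass there without their liver.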

How the results depend on the processing

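The count of called genes among the 38 was small, and single settings moved it. For aged against young livers it was 1, and became 0 with filtered edgeR, in spike-in set A, without the gene-rich livers and without the livers with muscle transcripts, 2 in set B and 3 with total counts. Leaving out a liver gave 0 (aged replicate 3) to 4 (aged replicate 1), and 2 without young replicate 4. Middle-aged against young gave 0, and 1 with TMM factors (Bnip3) and unfiltered edgeR (Atg16l2), 3 with only the groups compared, 3 with total counts and 0 to 3 (young replicate 4) without a liver; 2 came without aged replicate 1. Aged against middle-aged gave 0 in every setting. The 3 ages gave 1, and 2 with TMM factors, 0 with filtered edgeR, unfiltered limma voom, set A, without the gene-rich livers and without those with muscle transcripts, 4 with total counts, and 0 (young replicates 1, 2 or 3) to 5 (aged replicate 1) without a liver. In set B the count was also 1, but the gene was Atg13, with Atg16l2 at an adjusted p of 0.117 (DESeq2). Causes were not tested.

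The log2 fold change of Atg16l2 in aged against young livers was -0.94 with filtered edgeR, -0.80 in set A (adjusted p = 0.448, DESeq2, 2 livers against 2), -0.89 without the gene-rich livers (adjusted p = 0.0510) and -0.89 without those with muscle transcripts (adjusted p = 0.0501). Leaving out a liver gave -1.22 to -0.83. Unfiltered edgeR gave an adjusted p of 5.19e-06, which rests on the infinite prior degrees of freedom.

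Scaling by total counts moved the median of all genes by 0.12 on the log2 scale in aged against young and 0.11 in middle-aged against young livers, and 28 and 31 of the 38 genes then lay above 0. Same-numbered livers deviated together with correlations of -0.30 to 0.16, so the numbers were not taken as pairs. With the replicate number as a block, the calls were 1, 0, 0 and 1, and Atg16l2 had a log2 fold change of -0.95 in aged against young livers (adjusted p = 0.00477, DESeq2). In 1 of 12 pairs a liver correlated best with its own number. Atg10 and Tfeb had the lowest counts of the 38 genes (means of 47.1 and 66.1), and each had an SE of 0.22 in aged against young livers. Among young livers their coefficients of variation were 5.41% (Atg10) and 25.5% (Tfeb). The part of low counts in these SEs was not tested. Atg16l2 had the highest SE of the 38 genes in aged against young livers (0.24). It averaged 123 normalised counts, while Atg4a, at 114, had an SE of 0.145. The coefficient of variation of Atg16l2 was 20.9% among young and 36.5% among aged livers.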
